A study of Mus musculus with 3 samples.

Results

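The Stat genes encode signal transducers and activators of transcription. The 6 members described here, Stat2, Stat3, Stat4, Stat5a, Stat5b and Stat6, were found in the GENCODE M21 annotation by gene name, each as 1 gene, among 55536 annotated genes of which 22028 are protein-coding. They were measured in total RNA, depleted of ribosomal RNA, that was isolated with the chromatin of C57BL/6J mouse macrophages grown from bone marrow (3 libraries). The libraries form a single group, biological replicates 1, 2 and 3. Every culture was first treated for 12 hours with 100 ng/ml Lipid A, the portion of lipopolysaccharide sensed by Toll-like receptor 4. After a washout of 12 hours they were given 100 ng/ml again for 25 minutes. The libraries started from 1 µg, 250 ng and 500 ng of RNA in replicates 1, 2 and 3, so the amount of RNA and the replicate cannot be told apart. The labels give all 3 replicates the same donor entry and do not say whether they came from separate animals or cultures, so every SD and spread given here may be technical. With 1 condition, no response to Lipid A can be read from these levels.

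A Stat protein waits in the cytoplasm until a cytokine receptor binds its ligand and the receptor's Janus kinases phosphorylate it on a tyrosine. It then pairs through its SH2 domain with another Stat, enters the nucleus and binds DNA. Stat2 acts with Irf9 in the complex that answers type I interferon and binds the interferon-stimulated response element. Stat3 answers interleukin-10, interleukin-6 and related cytokines, Stat4 interleukin-12, Stat5a and Stat5b GM-CSF and interleukin-3, and Stat6 interleukin-4 and interleukin-13. Stat dimers that lack Irf9 bind a palindrome called the GAS element. RNA of the chromatin fraction holds transcripts still being made or spliced, so levels here are not amounts of mature messenger RNA or of protein.

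The genes lie on chromosomes 1, 10 and 11 of mm10. Stat2 is at chr10:128270559-128292849 on the plus strand and Stat6 at chr10:127642986-127660957, also on the plus strand. Stat3 (chr11:100885098-100939540, minus), Stat5a (chr11:100859351-100885169, plus) and Stat5b (chr11:100780731-100850724, minus) are neighbours. Stat5b and Stat5a start head to head with 8626 bp between their starts, and Stat5a and Stat3 end tail to tail with an overlap of 72 bp. Stat4 is at chr1:51987148-52107189 on the plus strand. The annotation gives the 6 genes 41 transcripts, 17 of them protein-coding, 20 of the class retained_intron and 4 of the noncoding class processed_transcript.

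Several of these transcripts differ by short stretches at exon edges, which are shown because they set which protein form a read can count for. Capitals mark the bases that the longer transcript holds and the shorter lacks, with 24 bases of exon sequence on either side, from the GENCODE M21 transcripts. In Stat2, transcript Stat2-202 holds 1 extra codon at the start of exon 15 of 24 (chr10:128283230-128283232, plus), making 923 residues rather than the 922 of Stat2-201. In Stat3, transcript Stat3-203 holds 50 bases at the start of exon 23 of 24 (chr11:100889541-100889590, minus) that Stat3-202 lacks. Without those bases the reading frame shifts, so that Stat3-202 encodes 722 residues and Stat3-203 encodes 770. The shorter form is known as Stat3β, which lacks the C-terminal transactivation domain. Transcript Stat3-201 lacks 3 bases at the end of exon 21 (chr11:100893074-100893076, minus) and encodes 769 residues. These bases, labelled below as the Stat3 extra codon, add 1 residue but straddle a codon boundary, so they are not read as a codon themselves.
Stat2 extra codon: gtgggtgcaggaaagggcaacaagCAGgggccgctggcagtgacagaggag
Stat3 stretch absent from the shorter form: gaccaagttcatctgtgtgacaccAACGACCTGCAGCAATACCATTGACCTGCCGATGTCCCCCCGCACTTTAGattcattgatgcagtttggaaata
Stat3 extra codon: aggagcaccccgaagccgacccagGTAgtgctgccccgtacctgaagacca

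Stat5a and Stat5b encode closely related proteins, and a stretch of their shared coding sequence is shown because reads from it cannot be told apart by sequence. Their longest identical run is 324 bases, all coding. It spans exons 7 to 9 of Stat5a-202 (chr11:100874023-100874983, plus) and exons 6 to 8 of Stat5b-201 (chr11:100797741-100798701, minus), 961 bp of genome in each. The first 120 bases of the run are printed.
Stat5a and Stat5b, shared: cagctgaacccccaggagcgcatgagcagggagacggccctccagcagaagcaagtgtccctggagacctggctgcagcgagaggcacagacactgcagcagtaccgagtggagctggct
Of the 3689 windows of 50 bases in Stat5a-202, 608 (16.5%) occurred letter for letter in a Stat5b transcript, as did 265 of its 3639 windows of 100 bases (7.28%). In Stat5b-201 the shares were 12.1% and 5.34%. The main transcripts of the other 4 members shared no window of 50 bases with another member. How the quantification divided such reads between both genes was not tested.

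The promoter of Stat2 is shown because Stat2 had the highest level of the family. RefSeq promoters (GRCm38.p6, 250 bases before to 50 after the start) were found for all 6 genes, and the 250 bases before the start of Stat2 are at chr10:128270248-128270497 on the plus strand. Capitals mark a match to the core of the interferon-stimulated response element, searched as GAAANNGAAA on both strands.
Stat2 promoter: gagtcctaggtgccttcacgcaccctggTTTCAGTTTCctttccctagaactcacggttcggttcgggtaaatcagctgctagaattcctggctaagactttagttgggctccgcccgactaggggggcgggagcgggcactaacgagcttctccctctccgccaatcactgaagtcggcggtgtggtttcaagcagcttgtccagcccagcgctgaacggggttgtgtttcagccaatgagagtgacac
The match began 222 bases before the start. Of 32851 RefSeq promoters of the same length, 1131 (3.44%) held this core. A second promoter listed inside Stat4 also held a match, 97 bases before its start. The windows of Stat3, Stat5a, Stat5b and Stat6 held no match. The GAS palindrome TTCNNNGAA, which 8.30% of promoters held, had no match in any member window. These are matches of letters in a window and do not show binding.

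In TPM, each transcript's reads divided by its length and brought to one fixed sum per library, 5 of the 6 members were detected, meaning at least 1 TPM in every library. Among all protein-coding genes, 9689 of 22028, or 44%, met the same rule. Stat2 stood far above the others, Stat3 and Stat6 came next at similar levels, Stat5b and Stat5a followed, and Stat4 stayed under 1 TPM in each library. Ranked by mean TPM among the 22028 protein-coding genes, Stat2 was 23, Stat3 565, Stat6 727, Stat5b 4388, Stat5a 4809 and Stat4 10516. Of the macrophage markers 8 of 8 were detected, with summed levels of 934, 945 and 869 TPM in replicates 1, 2 and 3. Of the B cell, dendritic cell, neutrophil and fibroblast markers none was detected in the gene table. None of these lists summed to more than 1.5 TPM in a library there. In the second quantification, the authors' other transcript table, the dendritic cell markers Siglech and Zbtb46 averaged 1.66 and 1.64 TPM. The fibroblast marker Col1a1 averaged 1.26 TPM, and the other markers of these lists under 1 TPM. In bulk RNA, fewer cells of a type and less RNA per cell cannot be told apart.

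**Figure D1:**
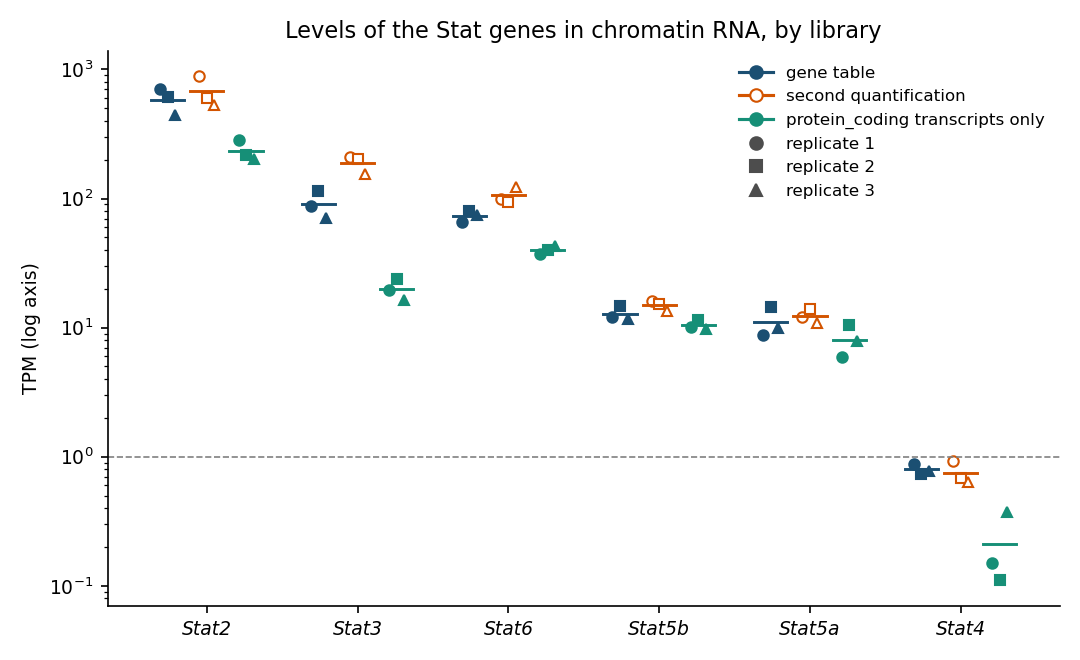
TPM of the 6 Stat genes on a log axis in replicates 1, 2 and 3 (symbols), with horizontal bars at the mean of the 3 libraries. Each gene has 3 estimates, the gene table, the second quantification and the protein_coding transcripts alone. Stat2 averaged 585 TPM in the gene table and Stat4 0.797 TPM, below the dashed line at 1 TPM. Stat3 lay above Stat6 by mean in the first pair of estimates and below it by protein_coding transcripts.

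Stat2, the partner of Irf9 in the interferon-activated complex, reached 701 TPM in replicate 1, 607 TPM in replicate 2 and 448 TPM in replicate 3, a mean of 585 ± 128 (SD, n = 3). These values rested on 19063, 18281 and 17070 expected counts, the number of reads that the authors' estimation assigned to the gene. Replicate 1 was the highest and replicate 3 the lowest. Within each library Stat2 exceeded every other member, and its difference from Stat3 was 2.99, 2.41 and 2.65 on the log2(TPM + 1) scale, a mean of 2.68 ± 0.29. All 3 TPM of Stat2 lay above their deposited credibility intervals, whose level is not given in the sources used here. The intervals were 630 to 662, 549 to 579 and 406 to 429 TPM in replicates 1, 2 and 3. The posterior mean TPM, a further estimate deposited with the gene table, averaged 542 for Stat2.

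Stat3, the mediator of interleukin-10 signalling in macrophages, had 87.1, 113 and 70.5 TPM in replicates 1, 2 and 3, a mean of 90.3 ± 21.7 (SD, n = 3). Stat6, the mediator of interleukin-4 signalling, had 65.7, 79.6 and 74.8 TPM, a mean of 73.4 ± 7.06. Stat3 was higher than Stat6 in replicates 1 and 2 and lower in replicate 3. The difference Stat3 minus Stat6 was 0.40, 0.51 and -0.08 on the log2(TPM + 1) scale, and its mean of 0.27 was within its SD of 0.32. In the gene table, levels of Stat3 and Stat6 therefore did not differ beyond the spread between libraries. The annotated end of Stat6 overlaps Nab2 on the opposite strand by 40 bp, and whether counting used strand is not given in the sources used here.

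Stat5b and Stat5a, which serve GM-CSF signalling in myeloid cells, lay close together. Stat5b had 12.0, 14.6 and 11.6 TPM in replicates 1, 2 and 3, a mean of 12.8 ± 1.65 (SD, n = 3). Stat5a had 8.81, 14.5 and 9.97 TPM, a mean of 11.1 ± 3.01. Stat5b was the higher of both genes in all 3 libraries, but by little in replicate 2. The difference Stat5b minus Stat5a was 0.41, 0.01 and 0.20 on the log2(TPM + 1) scale, and its mean of 0.21 was about the size of its SD of 0.20. The shared coding sequence printed above and the 72 bp overlap of Stat5a with Stat3 both touch these counts, and their part was not tested. Within each library both genes lay below Stat6, with Stat6 minus Stat5b at 2.35, 2.37 and 2.59 on the same scale.

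Stat4, the interleukin-12 mediator best known in T cells and NK cells, had 0.88, 0.74 and 0.77 TPM in replicates 1, 2 and 3. Only 11.6, 11.3 and 20.1 expected counts lay behind these values. The deposited credibility intervals of its TPM, whose level is not given in the sources used here, ran over 0.462 to 1.81, 0.426 to 1.58 and 0.471 to 1.56. Each interval held 1 TPM, so the depth does not settle on which side of the detection limit Stat4 lay. The posterior mean TPM of Stat4 averaged 1.02. A further gene, Gm28177, overlaps Stat4 over 29929 bp on the same strand and had 4.84, 16.7 and 21.5 expected counts. Among T cell markers 1 of 7 was detected, Cd4, at 7.36, 10.0 and 6.33 TPM, while Cd3e and Cd2 had no counts in any library. Cd3d, with at most 1 count in a library here, averaged 12.1 TPM in the second quantification, the authors' other transcript table. Among NK cell markers none of 6 was detected, and the summed levels were 2.32, 0.87 and 0.35 TPM, nearly all from Klrk1. In the second quantification Klrk1 averaged 1.31 TPM and the T cell marker Cd8a 2.20 TPM.

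Over the 15 pairs of members, 14 had the same order in all 3 libraries, Stat3 and Stat6 being the exception. An exact two-sided sign-flip permutation test of the within-library differences gave p = 0.25 for those 14 pairs and p = 0.5 for Stat3 minus Stat6, with adjusted p-values (Benjamini-Hochberg over 15 pairs) of 0.268 and 0.5. With 3 libraries 0.25 is the smallest p this test can give, so no pair could pass a significance threshold and the sizes and signs stand as descriptions. Apart from Stat3 minus Stat6 and Stat5b minus Stat5a, the neighbours in the order were far apart: Stat6 minus Stat5b averaged 2.44 ± 0.13 on the log2(TPM + 1) scale, and Stat5a minus Stat4 averaged 2.72 ± 0.39.

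Much of the family's TPM was assigned to annotated transcripts that keep intron sequence. Some of these are mostly exon sequence: intron bases are 192 of 736 in Stat2-206 and 113 of 672 in Stat3-212. Others are mostly intron, such as Stat3-208 with 1628 of 1995. Reads in their exon parts count too, so the shares below are not amounts of RNA with kept introns. Stat2 had 59.3%, 63.9% and 54.9% of its TPM in retained_intron transcripts in replicates 1, 2 and 3, a mean of 59.4% ± 4.50 (SD, n = 3). Stat3 had 75.4%, 79.0% and 74.7%, a mean of 76.4% ± 2.31. Stat6 had 43.4%, 49.7% and 42.2%, a mean of 45.1% ± 4.05. Over 6232 detected protein-coding genes with both transcript classes the median was 44.8%, with quartiles of 28.8% and 60.0%. The share of Stat3 was above that of 92.3% of those genes, the share of Stat2 above 74.0% and the share of Stat6 above 50.6%.

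The unit decided how large these shares were. Retained-intron transcripts of Stat2 are 459 to 1873 bases long and those of Stat3 349 to 1995, against 4394 bases for Stat2-201 and 4516 for Stat3-203, and TPM divides by length. Of the expected counts, 17.2% ± 2.35 of Stat2, 32.9% ± 1.13 of Stat3 and 8.32% ± 0.68 of Stat6 lay in retained_intron transcripts (SD, n = 3), against a median of 28.3% over the same 6232 genes. By counts Stat3 was above 55.2% of those genes, Stat2 above 34.3% and Stat6 above 18.9%. The annotation lists no retained_intron transcript for Stat5a or Stat5b, so this measure gives them no share and does not show their intron content. Stat5a-205 and Stat5a-207, of the class processed_transcript, hold 550 of 850 and 2476 of 3958 bases from introns of Stat5a-202. The class processed_transcript held 22.5% ± 4.21 of the expected counts of Stat5a.

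**Figure D2:**
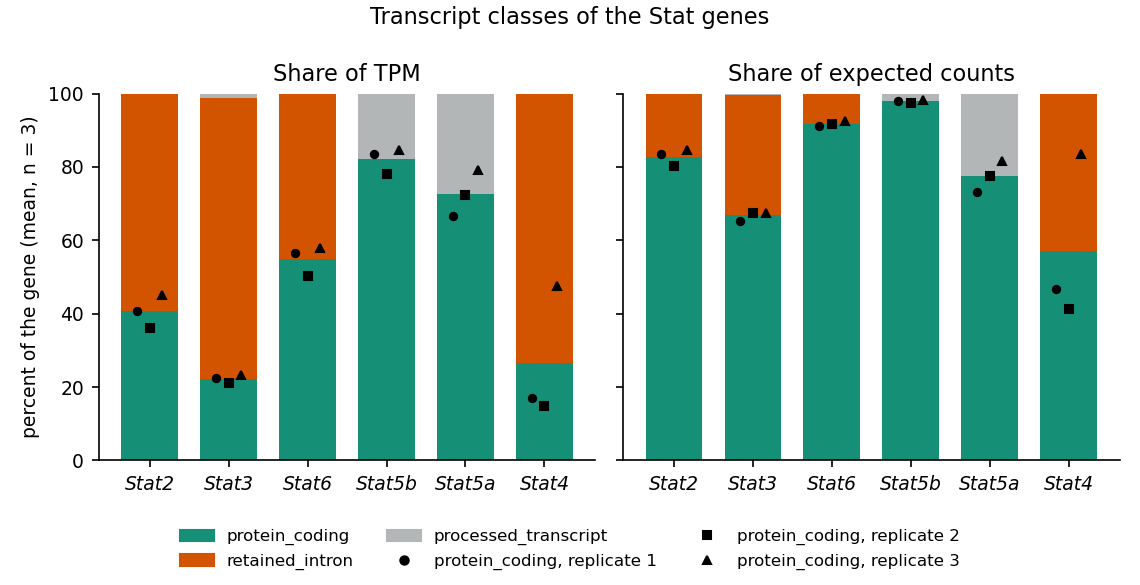
Stacked bars of the share of each gene's TPM (left) and of its expected counts (right) in protein_coding, retained_intron and processed_transcript transcripts, as the mean of 3 libraries; symbols give the protein_coding share in each replicate. The protein_coding share of Stat3 averaged 22.3% of TPM and 66.8% of expected counts, and that of Stat2 40.6% and 82.8%.

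Stat2 was carried by 1 coding transcript. Stat2-201 had 284, 218 and 201 TPM in replicates 1, 2 and 3, which was 40.4% ± 4.52 of the gene's TPM and 82.4% ± 2.41 of its expected counts (SD, n = 3). These TPM too lay above their deposited credibility intervals, 254 to 265, 197 to 205 and 182 to 191. Stat2-202, with the extra codon printed above, had 1.30, 1.18 and 0.73 TPM, or 0.452% ± 0.089 of the coding TPM. All but this one of the 8 Stat2 transcripts had at least 1 TPM in every library. Among the 6 retained-intron transcripts, levels were highest at the 5′ end of the gene. Stat2-206, which starts at the gene's start and ends inside intron 4, had 149, 110 and 76.7 TPM. Stat2-204, which starts 7.30 kb downstream and keeps intron 9, had 75.7, 87.2 and 47.6 TPM. Stat2-207, from 11.1 kb, had 82.4, 63.6 and 33.9 TPM. The remaining 3, which start between 12.3 and 13.5 kb, averaged between 26.0 and 41.5 TPM, below the first 3 on average. In the second quantification Stat2-203, one of those remaining 3 and only 459 bases long, averaged 123 TPM and this order did not hold.

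Stat3 was divided among several coding forms. The 770-residue form, Stat3-203, had 9.50, 14.1 and 8.12 TPM in replicates 1, 2 and 3, or 52.3% ± 5.82 of the coding TPM (SD, n = 3). The Stat3β form, Stat3-202, had 6.59, 7.71 and 6.23 TPM, or 34.6% ± 2.99. The 769-residue form, Stat3-201, had 3.56, 2.06 and 2.03 TPM, or 13.1% ± 4.77. The order of the 3 forms was the same in every library. Stat3-202 is 6042 bases long and its extended 3′ end reaches past that of Stat3-203, so its TPM does not come from the 50-base splice difference alone, and reads across that junction were not analysed here. In the second quantification the Stat3β form held 22.8% ± 2.37 of the coding TPM and Stat3-203 held 57.6% ± 2.50. Stat3-207, a form of 744 residues, is listed at 0 in all 3 libraries.

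Of the 9 retained-intron transcripts of Stat3, Stat3-211, which keeps intron 6, had 13.3, 23.7 and 10.3 TPM, and Stat3-208, which keeps introns 15 and 16 whole, had 12.9, 14.5 and 11.1 TPM. Stat3-208 is 1995 bases long and held 16.5% ± 0.88 of the gene's expected counts. The 4 that start within 31.3 to 41.0 kb of the gene's start averaged 9.81 to 15.8 TPM, and the 5 that start farther downstream averaged 0.37 to 7.30 TPM. Stat3-213 averaged 0.37 TPM and 12.4 TPM in the second quantification, so single short transcripts depended on the estimate.

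**Figure D3:**
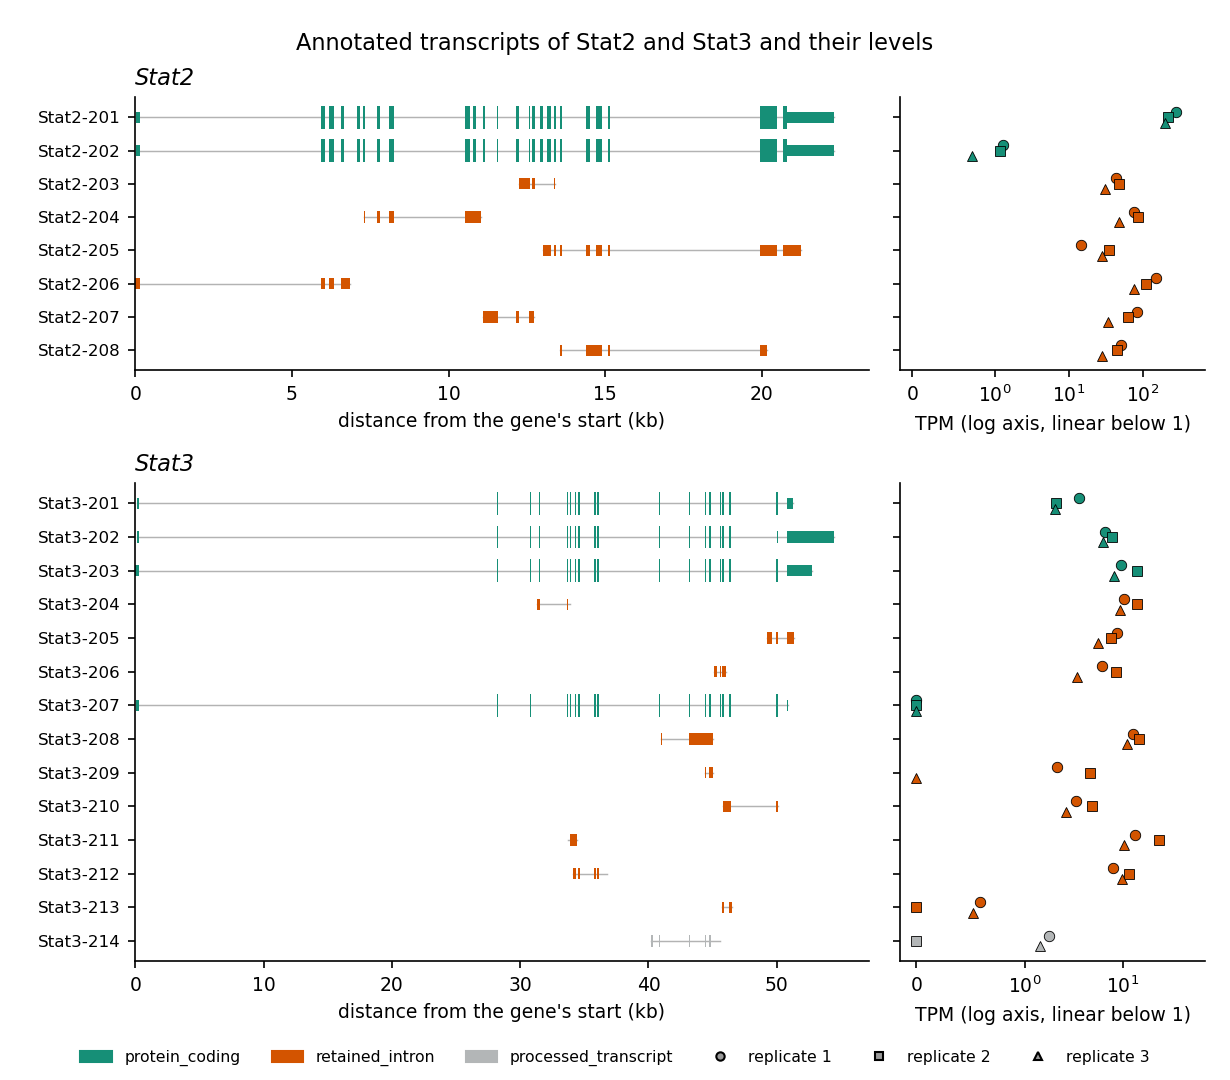
Left, annotated transcripts of Stat2 and Stat3 as distance from the gene's start in kb, with exons as boxes (tall where coding) and introns as lines, coloured by class. Right, TPM of each transcript in replicates 1, 2 and 3 on a log axis that is linear below 1. Stat2-201 lay at 201 to 284 TPM, above each retained-intron transcript of its gene, and Stat3-203 at 8.12 to 14.1 TPM, among the levels of its retained-intron transcripts.

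Stat6 had 1 main coding transcript, Stat6-201, at 37.2, 40.0 and 43.1 TPM in replicates 1, 2 and 3, with 54.8% ± 3.95 of the gene's TPM and 91.7% ± 0.65 of its expected counts (SD, n = 3). Its 3 retained-intron transcripts averaged 9.53, 11.7 and 11.9 TPM. Stat6-204, which keeps the last intron, intron 21, had 10.0, 12.0 and 13.2 TPM. Stat6-203, the nearest to the 5′ end, had 5.38, 15.7 and 7.56 TPM, the lowest of the 3 in replicates 1 and 3 and the highest in replicate 2.

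Stat5a and Stat5b had their TPM mostly in coding transcripts, 72.7% ± 6.30 of Stat5a and 82.0% ± 3.61 of Stat5b (SD, n = 3). Stat5a-202, of 793 residues, had 5.26, 7.49 and 5.54 TPM in replicates 1, 2 and 3. Stat5a-203, of 797 residues, had 0.06, 0.47 and 1.28 TPM and a mean of 2.11 TPM in the second quantification. Stat5a-207, a processed_transcript of 3958 bases that keeps the introns from 7 to 11, had 1.62, 1.88 and 1.33 TPM and held 19.7% ± 3.40 of the gene's expected counts. Stat5b-201 and Stat5b-202 encode the same 786 residues and differ in their first exons. Stat5b-201 had 5.80, 6.71 and 5.90 TPM and Stat5b-202 had 4.25, 4.70 and 3.91 TPM, so Stat5b-201 was higher in all 3 libraries. In the second quantification their means stood the other way, 3.15 TPM for Stat5b-201 and 6.61 TPM for Stat5b-202.

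Counting protein_coding transcripts alone changed 1 order in the family. This measure was chosen after the values were seen. Stat3 then had 19.7, 23.8 and 16.4 TPM in replicates 1, 2 and 3 and Stat6 had 37.2, 40.0 and 43.3 TPM, so that Stat3 lay below Stat6 in all 3 libraries. The difference Stat3 minus Stat6 averaged -0.99 ± 0.32 on the log2(TPM + 1) scale. Stat2 still led, at 285, 219 and 202 TPM. Over all transcripts of the second quantification the same difference was above 0 in all 3 libraries, a mean of 0.83 ± 0.43, so the order of Stat3 and Stat6 depended on the estimate. With protein_coding transcripts of the second quantification alone, Stat3 averaged 17.8 ± 3.39 TPM and Stat6 49.0 ± 8.10 TPM.

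The second quantification, made from the same reads with another transcript table, gave Stat3 208, 202 and 156 TPM in replicates 1, 2 and 3, against 87.1, 113 and 70.5 TPM in the gene table. Its ratio to the gene table was 2.39, 1.78 and 2.22. Stat3 was the only one of the 5 detected members over 1.5 times higher in the second quantification in every library. Among 9689 detected protein-coding genes, 2407, or 24.8%, were, and the median ratio was 1.34. The mean ratio was 1.45 for Stat6, 1.18 for Stat5b, 1.15 for Stat2 and 1.14 for Stat5a. The coding TPM of Stat3 averaged 17.8 TPM in the second quantification and 20.0 TPM in the first (n = 3), so the added TPM lay in its other transcripts. Stat3-204, a retained-intron transcript of 349 bases, averaged 47.2 TPM in the second quantification and 11.3 TPM in the first, and the processed_transcript Stat3-214 averaged 35.4 and 1.07 TPM.

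With all 3 libraries, the spread of the 5 detected members lay at or below the median of all genes. After TMM normalization, the CPM (counts scaled for library size) of Stat2 were 1301, 1097 and 977 in replicates 1, 2 and 3, those of Stat3 124, 158 and 112, and those of Stat6 133, 149 and 163. On this scale Stat2 was highest in replicate 1, Stat3 in replicate 2 and Stat6 in replicate 3, whereas in TPM Stat3 and Stat6 were both highest in replicate 2. The biological coefficient of variation (BCV, the spread between libraries beyond counting error) was 0.188 for Stat2, 0.184 for Stat3, 0.170 for Stat6, 0.177 for Stat5b, 0.202 for Stat5a and 0.224 for Stat4, which had few counts. The median over 14193 genes fitted was 0.203, with quartiles of 0.183 and 0.227. Without replicate 3 the BCV of Stat2 was 0.245, above the median of 0.240 over all genes in that fit. The fit draws each gene's BCV towards the trend of genes at a like level, so differences between members in BCV are smaller than in the raw values.

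**Figure D4:**
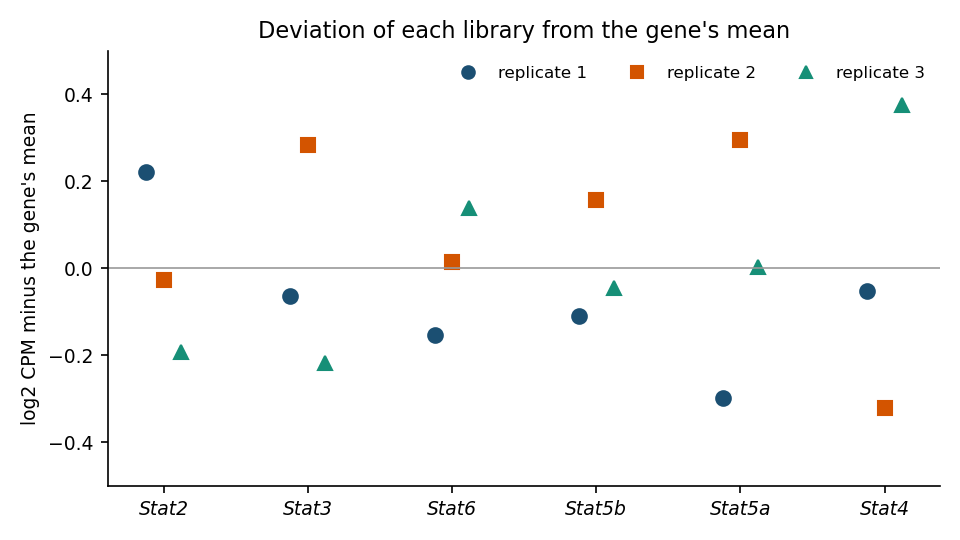
Deviation of each library's log2 CPM (TMM normalized) from the gene's mean over the 3 libraries, for the 6 members. Stat2 lay at 0.22 in replicate 1 and -0.19 in replicate 3, Stat6 at -0.15 and 0.14, and Stat5a between -0.30 in replicate 1 and 0.30 in replicate 2.

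Genes with levels most like each member's were chosen as the 3 protein-coding genes at the smallest Euclidean distance in log2(TPM + 1) over the 3 libraries, a measure that mostly matches the level. Nearest to Stat2 were Xdh, the xanthine dehydrogenase gene, at a distance of 0.066, Samhd1, which encodes a dNTP-degrading enzyme, at 0.31, and Parp14, an ADP-ribosyltransferase gene, at 0.36. Xdh had 686, 623 and 462 TPM in replicates 1, 2 and 3. Nearest to Stat3 were Senp3, a SUMO protease gene (0.15), Pml, the gene of the nuclear body scaffold (0.22), and Vasn (0.23). Stat6 was closest to Brf1, of RNA polymerase III (0.076), Map7d1 (0.104) and Pmm2, a mannose-phosphate enzyme gene (0.11). Stat5b was closest to Nmrk1 (0.037), Nfam1 (0.058) and Eef2k (0.068), and Stat5a to Arid3a (0.078) and Rit1 (0.097). Stat4, at its low level, was closest to Zfp109 (0.044), Prag1 (0.061) and Iqcg (0.064).

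Upstream of the Stats, the genes of all 4 Janus kinases were detected. Tyk2, which serves the interferon and interleukin-12 receptors, was the highest at 88.7, 92.1 and 72.6 TPM in replicates 1, 2 and 3, a mean of 84.5 ± 10.4 (SD, n = 3). Jak3 averaged 33.5 ± 8.25 TPM and Jak1 32.6 ± 4.41 TPM. The list's median was 5.17 on the log2(TPM + 1) scale, against 0.61 over all protein-coding genes and 3.56 over the detected ones. In the second quantification Jak1 averaged 71.1 ± 15.8 TPM and Jak3 31.8 ± 4.44 TPM, so their closeness depended on the estimate.

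Receptor chains were detected for 19 of 22 genes, against 44% of all protein-coding genes, with a median of 4.67 on the log2(TPM + 1) scale. Csf2ra, the GM-CSF receptor's alpha chain, had 133, 252 and 252 TPM, a mean of 212 ± 68.4 (SD, n = 3). Csf3r, the G-CSF receptor, averaged 87.6 ± 18.4 TPM and Il10ra, the interleukin-10 receptor's ligand-binding chain, 84.7 ± 12.0 TPM. The chains not detected were Il13ra1 at 0.367 TPM, Lepr at 0.040 TPM and Osmr at 0.0067 TPM on average. Lepr averaged 4.43 TPM in the second quantification. Il13ra1 pairs with Il4ra to form the interleukin-13 receptor that signals to Stat6.

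All 5 nuclear partners and coactivators were detected, with a median of 5.12 on the log2(TPM + 1) scale. The acetyltransferase gene Ep300 averaged 74.5 ± 6.97 TPM (SD, n = 3) and its relative Crebbp 34.0 ± 4.75 TPM. Irf9, the DNA-binding partner of Stat2, had 40.9, 41.6 and 37.2 TPM in replicates 1, 2 and 3, well below Stat2's own 701, 607 and 448 TPM in each library.

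Among the inhibitors of the pathway 15 of 17 genes were detected, against 44% of all protein-coding genes. Their list's median was 3.63 on the log2(TPM + 1) scale, close to the 3.56 of detected protein-coding genes. Ptpn6, the SHP-1 phosphatase, averaged 82.4 ± 17.0 TPM (SD, n = 3), Usp18, which blocks the type I interferon receptor, 64.8 ± 33.6 TPM and Socs3, which blocks signalling through the interleukin-6 receptor, 53.7 ± 17.7 TPM. The SOCS-family genes Cish, with 0.88, 0.68 and 2.43 TPM, and Socs2, with 0.19, 0.30 and 0.46 TPM, were not detected. In the second quantification Socs2 averaged 2.42 ± 0.28 TPM and Cish 1.57 ± 0.51 TPM.

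Genes known as targets differed by member in their levels. All 10 genes known as targets of the Stat2 complex were detected, with a median of 7.98 ± 0.60 on the log2(TPM + 1) scale (SD over 3 libraries). The antiviral GTPase gene Mx1 averaged 1768 ± 746 TPM, Oasl2 492 ± 114 TPM and Rsad2, which encodes viperin, 468 ± 274 TPM. All 10 genes known as Stat3 targets were detected too, with a median of 5.82 ± 0.09. The repressor gene Etv3 averaged 167 ± 57.9 TPM. The kinase gene Pim1 had 159, 113 and 148 TPM, and Junb, of the AP-1 factors, averaged 132 TPM. These levels do not show which factor drove a gene.

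Of 7 genes known as Stat5 targets 4 were detected, where 44% of all protein-coding genes met the same rule. The list's median of 2.68 ± 0.63 on the log2(TPM + 1) scale was below the 3.56 of detected protein-coding genes. Beside Pim1, the cell cycle kinase gene Cdk6 averaged 40.6 ± 8.36 TPM (SD, n = 3) and the repressor gene Bcl6 13.6 ± 2.48 TPM. Cish, Socs2 and Id1, the last at 0.63, 0.59 and 0.44 TPM in replicates 1, 2 and 3, were not detected. For Socs2 and Cish the second quantification was higher, as given above, while Id1 averaged 0.50 TPM there. Of 10 genes known as Stat6 targets in mouse macrophages 2 were detected, and the median of 0.17 was below the 0.61 of all protein-coding genes. These 2 were the mannose receptor gene Mrc1, with 37.6, 30.2 and 50.9 TPM, and the lectin gene Clec10a, with 4.79, 6.04 and 6.16 TPM. Arg1, the arginase gene, averaged 1.03 ± 0.47 TPM and was under the limit in replicates 2 and 3. In the second quantification Arg1 averaged 2.51 ± 0.76 TPM. Pdcd1lg2 averaged 0.50 TPM, Chil3 0.22 TPM, Ccl22 0.070 TPM and Mgl2 0.013 TPM. Retnla, Ccl17 and Ccl24 are listed at 0 in all 3 libraries, and Ccl24 averaged 5.59 TPM in the second quantification.

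**Figure D5:**
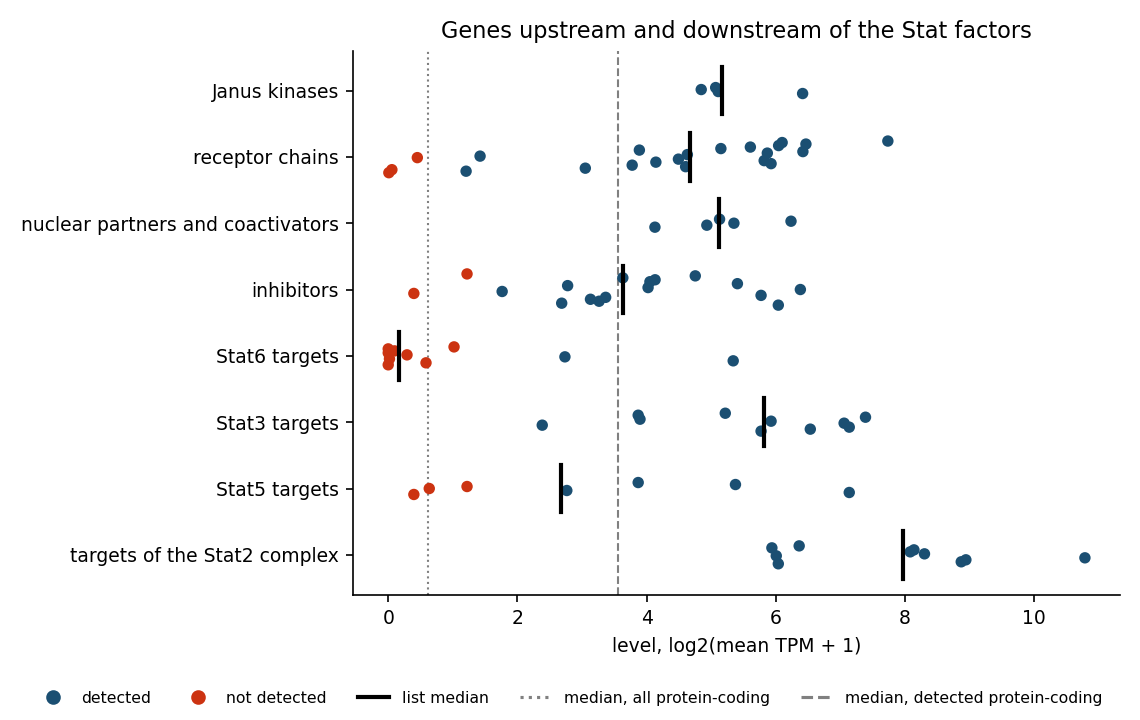
Level of each listed gene, as log2(mean TPM + 1) over 3 libraries, for the Janus kinases, receptor chains, nuclear partners, inhibitors and the 4 lists of target genes; black bars are the mean over libraries of the list's median, and vertical lines are the medians of all (dotted) and of detected (dashed) protein-coding genes. Of the 10 Stat6 targets 8 are not detected and lie at the left, and the 10 targets of the Stat2 complex lie to the right of the dashed line.

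The library with the highest value, looked at after the values were seen, was the same for Stat2 and its listed targets. Stat2 and all 10 genes known as targets of the Stat2 complex had their highest TPM in replicate 1, as did 41.6% of detected protein-coding genes. Among detected genes of the other lists, so did 12 of 19 receptor chains, 8 of 15 inhibitors, 3 of 5 nuclear partners and 5 of 10 Stat3 targets. The same held for 2 of 4 Janus kinases, 2 of 4 Stat5 targets and 0 of 2 Stat6 targets. Mx1 had 2605, 1530 and 1170 TPM and Rsad2 785, 317 and 302 TPM in replicates 1, 2 and 3. The other 4 detected members had their highest TPM in replicate 2, as did 38.5% of detected protein-coding genes. In the second quantification this held for Stat5a only. There Stat3 and Stat5b were highest in replicate 1, at 208 and 16.2 TPM, and Stat6 in replicate 3, at 124 TPM. Replicate 1 also started from the most RNA and had 29.9% of its TPM in protein-coding genes, against 26.4% and 25.4% in replicates 2 and 3. The part these played was not tested.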

How the data were processed

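Bone-marrow-derived macrophage chromatin RNA was measured in 3 libraries of 1 group. The authors deposited, per the file headers, a gene table and a transcript table of expected counts and TPM with columns named as RSEM names them, and a second transcript table of estimated counts and TPM with columns named as kallisto names them. Per the deposited notes the build was mm10 and the annotation GENCODE M21. For the aligner, software versions and strandedness: not given in the sources used here. Annotated genes held 13502401, 17848798 and 17824176 expected counts in replicates 1, 2 and 3. Rows that name no annotated gene held 1.75%, 0.396% and 0.239% of counts and were left out of the spread fit. Pairs of libraries differed far beyond counting noise (chi-square per degree of freedom 24.3 to 109). The members and lists were chosen with earlier results of these data known, and 1 further gene of the family and 1 of the nearest genes are not reported here.

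TPM were averaged per gene, with a pseudocount of 1 on the log2 scale. Detection meant at least 1 TPM in every library. Pairs were tested by an exact sign-flip permutation test over libraries (scipy 1.17.1), with Benjamini-Hochberg adjustment. Expected counts were rounded for edgeR 4.0.16 (R 4.3.3; filterByExpr, TMM, estimateDisp with an intercept only), tested on simulated data. TPM of the second table were summed per gene. The text names every member, from each list the 3 genes with the highest mean TPM and those not detected, and the 3 nearest genes per member. Alternatives were the second table, posterior mean TPM, rescaling over protein-coding genes, other thresholds and pseudocounts, DESeq2 1.42.0, and leaving out each library. Other tools were Python 3.11.15, numpy 2.4.6, pandas 2.3.3 and matplotlib 3.10.9.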

Additional observations from a re-analysis of the deposited data

How the results depend on the processing

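The counts of detected members and detected pathway genes, the number of pairs ordered alike and the median BCV of the 5 detected members held within 1.5 times under every alternative run. Leaving out each library in turn gave 5 detected members each time, 64 of 78 pathway genes and 14 to 15 pairs ordered alike. The median BCV was then 0.153 to 0.232, against 0.184 with all libraries. By posterior mean TPM, 13 pairs were ordered alike in every library. Detected pathway genes numbered 69 in the second quantification and 55 at a limit of 5 TPM. The median retained-intron share of Stat2, Stat3 and Stat6 was 59.4% of TPM, 57.1% to 61.6% with a library left out, 71.0% in the second transcript table and 17.2% of expected counts. Stat3 minus Stat6, 0.27 in the gene table, was 0.83 in the second quantification, with Stat3 higher in all 3 libraries, and turned to -0.99 with protein_coding transcripts only, with Stat3 lower in all 3. Rescaling TPM over protein-coding genes raised every member, Stat2 to 2139.7 TPM. The second quantification moved the levels of 3 of 6 members (Stat3, Stat5b and Stat6) by over 1 SD. Posterior mean TPM did so for Stat4 alone, from 0.797 to 1.02 TPM. The causes of these differences were not tested. No paired analysis was possible because the series holds 1 group. Stat4, with 11.3 to 20.1 counts, could not be fitted without replicate 3. With 3 libraries the exact sign-flip test cannot go below p = 0.25.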
